A study of Mus musculus with 17 samples.

Results

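The set of mature oligodendrocyte and myelin genes described here has 9 members, Mbp, Mog, Mag, Mobp, Cnp, Mal, Cldn11, Opalin and Ermn. They were taken by symbol from a table of 24498 genes, and all 9 were present. The libraries are bulk poly(A) RNA-seq of mouse dorsal hippocampus, cut as slices 1 mm thick that held CA1, CA2, CA3 and dentate gyrus. Mice carried a knockout (KO) of Acss2, whose product turns acetate into acetyl-CoA, or were wild type (WT). The paper calls the knockout constitutive. At 6 months of age they received a stereotaxic hippocampal injection of Tau purified from the cortex of patients with Alzheimer disease, or of PBS, and were examined 6 months later. Each of the male groups, WT PBS, WT Tau, KO PBS and KO Tau, had 3 libraries. The female libraries are from mice injected with Tau only, in a WT group of 2 libraries and a KO group of 3 libraries. The paper's methods name male mice for bulk RNA-seq. WT and KO mice came from homozygous crosses of the offspring of heterozygous breeders. By the labels of all 17 libraries, the mice were perfused with PBS and then paraformaldehyde before dissection. Each library has a number of its own, female libraries from 314 to 341 and male ones from 711 to 793, so sex and number series cannot be told apart. Where the labels give no more than a library number, p-values measure the spread between these libraries.

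Oligodendrocytes wrap axons with myelin, a compacted membrane that insulates the axon and speeds conduction, and in the hippocampus myelin lies mostly in the fibre tracts above and below the cell layers. Myelin basic protein (Mbp) and the myelin-associated oligodendrocytic basic protein (Mobp) help hold the cytoplasmic faces of the membrane together, and Cnp encodes a phosphodiesterase that keeps cytoplasmic channels open within the sheath. Mag and Mog are membrane glycoproteins, Mag next to the axon and Mog on the outermost surface. Cldn11 forms the tight junctions of the sheath and Mal is a raft protein that sorts membrane cargo. Opalin is a transmembrane glycoprotein of mature oligodendrocytes, and Ermn encodes the actin-binding ermin that appears late in myelination. The transcription factors Sox10, Olig2 and Myrf direct the lineage.

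Letters like those bound by the SOX, MYRF and OLIG factors were looked for in the promoter windows of the members, from 250 bases before to 50 after each RefSeq start (GRCm38.p6). Windows were found for 8 of the 9 members, 10 windows in all, and Mbp is named only. On either strand, ACAAAG or ACAATG (SOX) stood in windows of 5 members and in 28.4% of 32544 promoters of the same length. CTGGCAC or CTGGTAC (MYRF) stood in windows of 4 members and in 7.11% of promoters, and CAGCTG or CATATG (OLIG) in a window of 1 member and in 19.8% of promoters. A match is a run of letters and not a shown binding site. The windows of Mobp, Cnp and Opalin are printed because the ratios of Mobp to Cnp and to Opalin differed between female and male libraries. Capitals mark the SOX, MYRF and OLIG letters, none of which overlap each other.
Mobp: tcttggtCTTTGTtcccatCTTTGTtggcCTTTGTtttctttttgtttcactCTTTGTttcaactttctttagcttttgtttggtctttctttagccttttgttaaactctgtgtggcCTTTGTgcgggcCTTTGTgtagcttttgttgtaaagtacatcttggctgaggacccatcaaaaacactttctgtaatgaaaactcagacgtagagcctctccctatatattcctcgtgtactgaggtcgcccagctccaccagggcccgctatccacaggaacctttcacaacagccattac
Cnp: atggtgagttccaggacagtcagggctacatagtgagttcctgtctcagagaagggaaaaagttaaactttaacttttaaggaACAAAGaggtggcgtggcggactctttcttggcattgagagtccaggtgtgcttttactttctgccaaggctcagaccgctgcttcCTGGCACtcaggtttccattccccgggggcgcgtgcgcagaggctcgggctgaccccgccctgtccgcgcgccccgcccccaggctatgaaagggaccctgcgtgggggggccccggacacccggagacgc
Opalin: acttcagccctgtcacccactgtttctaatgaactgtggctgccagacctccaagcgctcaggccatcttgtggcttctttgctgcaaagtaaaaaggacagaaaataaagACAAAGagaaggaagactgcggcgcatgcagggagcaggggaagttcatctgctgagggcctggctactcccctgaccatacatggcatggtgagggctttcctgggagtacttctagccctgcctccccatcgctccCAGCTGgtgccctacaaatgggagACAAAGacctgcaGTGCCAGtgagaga
The Mobp window (chr9:120149492-120149791, plus strand) held 6 SOX matches, all as the reverse complement of ACAAAG, and no MYRF or OLIG letters. The Cnp window (chr11:100574689-100574988, plus strand) held 1 SOX and 1 MYRF match. In the Opalin window (chr19:41077064-41077363, minus strand) there were 2 SOX matches, 1 MYRF match and 1 OLIG match.

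Library totals ran from 14183131 to 22463635 counts. The members together took 0.212% to 0.851% of a library, and no member had fewer than 197 counts in any library. Acss2 was at 3.07 to 8.81 CPM (counts scaled to a library total of 1000000) in KO and 44.0 to 54.6 CPM in WT libraries, and sex-linked genes matched the label in 17 of 17 libraries. Several libraries stood apart in markers of other cells or regions. Male KO Tau 711 had a summed level of 10 astrocyte markers of 8354 CPM, against 4508 to 5344 CPM in the other 11 male libraries. Male KO Tau 713 held 4158 CPM of 14 choroid plexus markers, the highest of all libraries, and male KO PBS 752 had the highest striatal (820 CPM) and neocortical (964 CPM) sums of all libraries. Markers of CA1 pyramidal cells summed to 424 CPM in that library, the lowest of all, and to up to 1070 CPM elsewhere, and those of dentate granule cells ran from 197 to 655 CPM. Mbp, Mag and Mal are also made by Schwann cells of peripheral nerve, whose 6 markers summed to only 3.65 to 20.2 CPM, with 2 of them at 0 in at least 1 library.

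Per kilobase of exon, Mbp was the highest of the members in every library, from 137.9 to 706 CPM per kb. Cnp (74.7 to 143 CPM per kb) and Mal (59.7 to 190 CPM per kb) took the next ranks and changed places between libraries. Cldn11 was always the fourth, at 51.5 to 111 CPM per kb. Mag, Mog, Mobp and Ermn followed with ranges that overlap, and Opalin was last in every library at 4.16 to 11.2 CPM per kb. Mobp moved most in this order, between rank 5 and rank 8. Part of Mobp overlaps a gene model on the same strand, Gm38642, so reads there may have been left uncounted.

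Mbp CPM was 1264, 2074 and 1168 for male WT mice after PBS and 1935, 2320 and 1751 after Tau, and 1779, 1772 and 2510 for male KO mice after PBS and 3960, 1323 and 1571 after Tau. Females given Tau had 5982 and 2450 (WT) or 2216, 3256 and 2874 (KO). The single libraries male KO Tau 711 and female WT Tau 331 carried the high values, and the male groups otherwise overlapped. Mobp, which shares the compaction role, was at 146.7, 251.5 and 133.9 CPM in male WT mice after PBS and 214, 260.1 and 195.9 after Tau, and at 213.4, 273.4 and 315.7 in male KO mice after PBS and 350.1, 127 and 183.2 after Tau. The female libraries reached 692.6 and 490 CPM (WT) and 331.9, 450.3 and 422.6 CPM (KO). Every female value except that of KO Tau 314 lay above all 12 male values. For Cnp the CPM was 291.6, 408.3 and 280.8 for male WT mice after PBS, 436.6, 485.9 and 385.8 after Tau, 332.7, 371.8 and 521.8 for male KO mice after PBS, 468.7, 326.9 and 378.8 after Tau, and 440.9 and 365.7 (WT) or 271.8, 346.5 and 277.3 (KO) for females. Unlike Mobp, Cnp had its lowest value in a female library. Opalin CPM was 18.03, 25.9 and 15.6 for male WT mice after PBS, 30.9, 32.4 and 26.7 after Tau, 22.1, 21.9 and 32.3 for male KO mice after PBS, 32.9, 18.03 and 24.1 after Tau, and 30.4 and 15.4 (WT) or 14.4, 19.8 and 12.2 (KO) for females. Its 3 lowest values of all 17 were from female libraries.

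**Figure D1:**
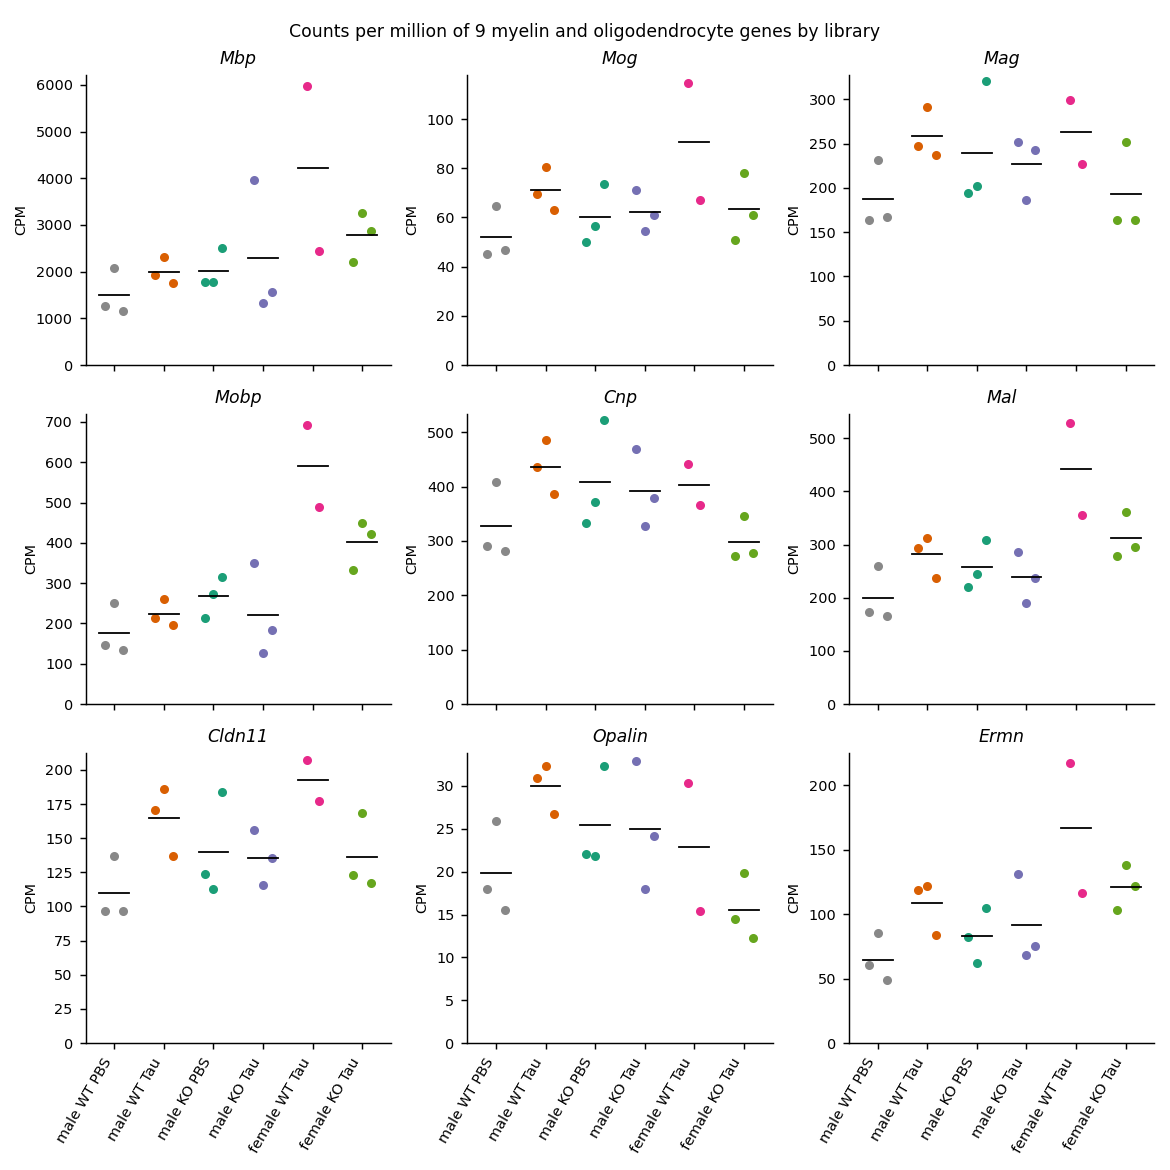
CPM of each of the 9 genes (y axis, linear, from 0) in the 6 groups (x axis); points are libraries and lines are group means. Mobp is highest in the female libraries, while the lowest values of Opalin and Cnp are also female.

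Summed over the 9 genes, the male WT mice had 2640 ± 781 CPM after PBS and 3575 ± 490 CPM after Tau, and the male KO mice 3502 ± 755 CPM after PBS and 3676 ± 1778 CPM after Tau (mean ± SD, n = 3 for each). The female mice given Tau had 6389 ± 3002 CPM when WT (n = 2) and 4323 ± 758 CPM when KO (n = 3). Female WT Tau 331 alone held 8512 CPM and male KO Tau 711 held 5708 CPM. In bulk tissue, fewer oligodendrocytes and less RNA per oligodendrocyte cannot be told apart. The white matter in each slice was not measured.

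Members varied together from library to library. Over the 17 libraries, taken as deviations of log2 CPM from the group means, the 36 pairs of members had Pearson r between 0.70 (Mbp with Cldn11) and 0.95 (Cnp with Mal), with a median of 0.88. These values describe libraries that share slice, depth and RNA preparation. Counts of members in the comparisons below are therefore not counts of separate observations. Mbp varied most, with a pooled within-group SD of 0.53 on the log2 scale, then Mobp (0.43), and Cnp varied least (0.26).

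Injection of Tau in male WT mice asked what the pathological protein does to an otherwise normal hippocampus. All 9 members were higher in mean in WT Tau than in WT PBS, by a median of 0.44 on the log2 scale, where 47.7% of all 15098 genes tested were above 0 and their median was -0.01. No member passed an adjusted p of 0.05 in edgeR's quasi-likelihood test, which called 0% of all genes, nor in DESeq2, which also called 0% of its genes. At an unadjusted p under 0.05, edgeR had 5 of the 9 members (Mog, Mal, Cldn11, Opalin and Ermn) against 1.86% of all genes. Since the members varied together, such counts are not separate observations, and the set as a whole was not tested. Ermn had the highest difference, with 60.3, 85.3 and 48.8 CPM in WT PBS and 118.7, 122 and 84.2 CPM in WT Tau. The lowest WT Tau library lay just under the highest WT PBS library. That is 0.72 ± 0.29 (log2, SE, edgeR adjusted p = 1.00). Mobp had the lowest difference, 0.31 ± 0.34 (edgeR adjusted p = 1.00). The WT Tau libraries lay wholly above the WT PBS libraries for 2 members, Mag and Opalin, and for 6.84% of all genes. WT PBS 792 was the highest of its group for every member, and the median difference was 0.72 without it and 0.34 without WT PBS 791.

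Among the 76 other genes of the lineage, the medians of the mature lists lay with the members here. Those of the early stages did not, though Enpp6 of newly formed cells was at 0.31. Both male KO groups, set against the same WT PBS libraries, had a like split of list medians, given below. In WT Tau, all 12 genes of myelin structure and adhesion, 11 of myelin lipid and metabolism, 9 channels and receptors, 17 other oligodendrocyte genes and 9 lineage transcription factors were above 0. Their list medians ran from 0.34 to 0.49. Of 8 genes of newly formed oligodendrocytes 4 were above 0 (median 0.00), and of 10 precursor genes 3 (median -0.02). No gene of the 76 passed an adjusted p of 0.05 in edgeR, DESeq2 or limma voom fitted on all male libraries, and 17 had an unadjusted p under 0.05 in edgeR. Ugt8a, which makes galactosylceramide, was 0.65 ± 0.21 higher and Apod, a lipid carrier, 0.71 ± 0.23, each with an adjusted p of 1.00 in edgeR. The aspartoacylase gene Aspa, whose product releases acetate from N-acetylaspartate in oligodendrocytes, differed by 0.65 ± 0.27 (edgeR adjusted p = 1.00). Myrf (0.42), Olig2 (0.39), Sox10 (0.34), Olig1 (0.20) and Sox8 (0.16) were above 0, Pdgfra, the receptor that marks precursors, was at -0.09, and Enpp6, of newly formed cells, at 0.31. DESeq2 on the 6 libraries compared called 0 of the 9 members and 6 of the 76, beside 11 genes in all (0.101% of its 10864), all higher in WT Tau. Among the 6 were Ugt8a, Gsn, Ndrg1, Tmem88b and Qdpr. The neocortical marker list summed to 391 to 510 CPM in WT Tau and 523 to 565 CPM in WT PBS, and the ependymal list to 25.8 to 41.1 CPM and 8.33 to 20.8 CPM. Choroid plexus markers overlapped, at 57.0 to 607 CPM and 50.3 to 76.8 CPM. The part of these lists in the differences was not tested.

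**Figure D2:**
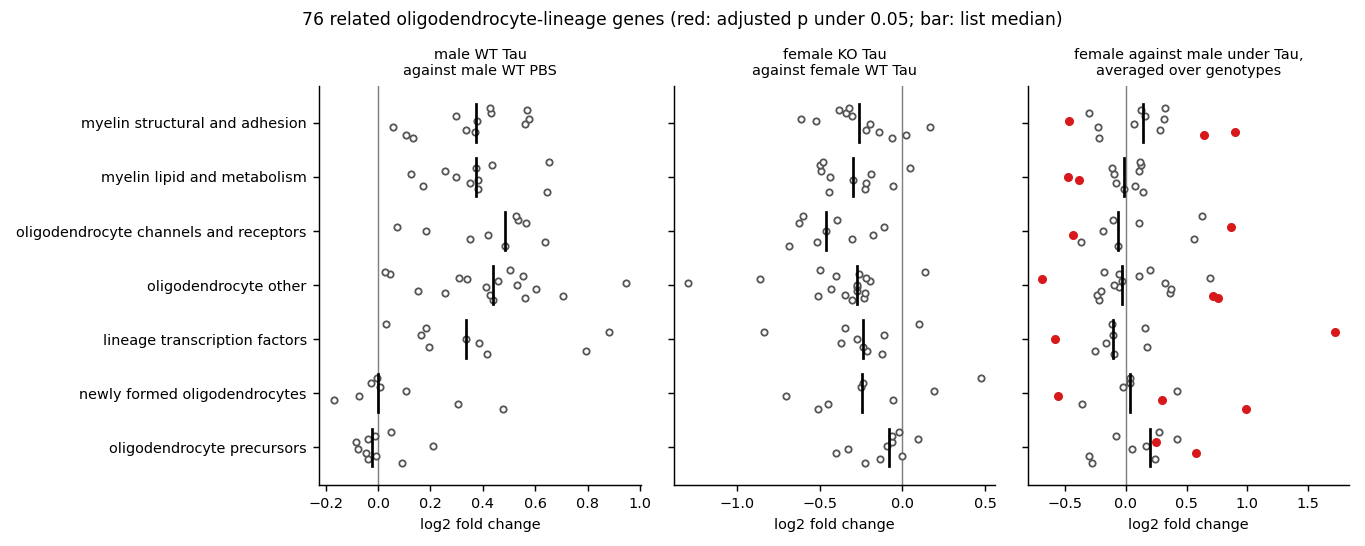
edgeR log2 fold changes (x axis) of 76 related genes in 7 lists (y axis) for 3 comparisons, with list medians as bars and genes of adjusted p under 0.05 in red. In male WT Tau against WT PBS the medians of the first 5 lists lie between 0.34 and 0.49 and those of newly formed cells and precursors at 0.00 and -0.02.

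Loss of Acss2 without Tau was read from male KO PBS against WT PBS. All 9 members were again above 0, with a median of 0.40 beside 0.01 for all genes, of which 52.5% were above 0. No member passed in edgeR (0.00662% of all genes called, which is Acss2 alone) or in DESeq2 (0.01% called). At an unadjusted p under 0.05 there were 0 members in edgeR against 4.42% of all genes, 1 member in DESeq2 against 3.33% and 6 in limma voom against 5.72%. limma voom called no member at an adjusted p of 0.05. Mobp differed most, by 0.64 ± 0.34, and Mog least, by 0.25 ± 0.18 (edgeR adjusted p = 0.999 for both). The groups overlapped for every member, and KO PBS lay wholly above WT PBS for only 2.31% of all genes. The median was 0.66 without WT PBS 792 and 0.21 without KO PBS 753, the highest library of its group for every member. KO PBS 752, with 424 CPM of CA1 markers against 1025 and 1058 CPM in the other KO PBS libraries, stood apart in its slice markers, and the median was 0.50 without it. Their part in these values was not tested. The mature lists and the lineage transcription factors had medians from 0.22 to 0.32, newly formed oligodendrocytes 0.045 and precursors -0.06. Of the 76 related genes, 63 were above 0, 7 had an unadjusted p under 0.05 and 0 passed in edgeR, DESeq2 or limma voom. Nfasc, whose glial form anchors the sheath at the paranode, was 0.29 ± 0.11 higher and Tnr, a matrix glycoprotein, 0.39 ± 0.15 (edgeR adjusted p = 0.999 for each). Both this comparison and the one above used the same WT PBS libraries. Myrf was at 0.45, Olig2 at 0.41, Sox10 at 0.28, Olig1 at 0.17, Enpp6 at 0.14, Aspa at 0.11, Sox8 at -0.03 and Pdgfra at -0.11.

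Male KO Tau against WT PBS sets both changes against neither. The members had a median of 0.31 with 9 of 9 above 0, beside 49.3% of all genes above 0 and a median of 0.00. edgeR called 0 members (0.00662% of all genes), DESeq2 called 0 (0.075%) as did limma voom (0.0729%), and 0 members had an unadjusted p under 0.05 in edgeR, where 6.33% of all genes did. Mbp was the highest at 0.61 ± 0.38 (edgeR adjusted p = 0.825), and this value rests on KO Tau 711, without which it was -0.057. Mog and Mal were lowest, Mog at 0.26 ± 0.18 and Mal at 0.26 ± 0.21 (edgeR adjusted p = 0.833 and 0.852). No member had KO Tau wholly above WT PBS, as 6.29% of all genes did. The median of the members was 0.11 without KO Tau 711 and 0.51 without WT PBS 792, where 8 of 9 members had an unadjusted p under 0.05 in edgeR beside 4.53% of all genes and 0 passed. The mature lists and the lineage transcription factors had medians from 0.19 to 0.30, newly formed oligodendrocytes 0.07 and precursors 0.04. Of the related genes 62 of 76 were above 0 and 9 had an unadjusted p under 0.05. The smallest p-values were those of Klk6, a protease of mature oligodendrocytes (0.95 ± 0.32), Gsn (gelsolin, 0.53 ± 0.19) and Lpar1, a lysophosphatidic acid receptor (0.61 ± 0.22), and on the lower side of Frmd4a (-0.31 ± 0.12), each with an adjusted p of 0.783 in edgeR. None of the 76 passed in edgeR, in DESeq2 or in limma voom on all male libraries. DESeq2 on the 5 libraries left without KO Tau 711 called 0 members and 6 of the 76, 2 higher and 4 lower, beside 7.3% of all its genes, so that the share is near that of all genes.

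Male KO Tau against WT Tau compares the genotypes under Tau, in libraries that also differed in slice markers, given below. Here 2 of the 9 members were above 0 and the median was -0.17, beside 51.8% of all genes above 0 and a median of 0.01. Neither edgeR (0.00662% of all genes called), DESeq2 (0.02%) nor limma voom (0.0132%) called a member, and 0 members had an unadjusted p under 0.05 in edgeR, against 4.71% of all genes. Mbp was the highest at 0.22 ± 0.37 (edgeR adjusted p = 0.961) and Cldn11 the lowest at -0.26 ± 0.21 (adjusted p = 0.927). No member had KO Tau wholly below WT Tau, where 8.76% of all genes did. KO Tau 711 decided the sign for Mbp. Without it Mbp was at -0.45 and the members' median at -0.38, while without KO Tau 712 the median was -0.04. Without 711 edgeR called 0 members and 1 gene in all. DESeq2 on the 5 libraries left called 4 members (Mbp, Mobp, Opalin and Ermn) and 15 of the 76 related genes, all lower in KO Tau. In that DESeq2 fit 1377 of 14887 genes (9.25%) were called, 4.99% of all genes on the lower side, where the same fit with 711 called 28 (0.187%). Ermn was then at -0.58 ± 0.16 (DESeq2 adjusted p = 0.00682), Mbp at -0.45 ± 0.13 (0.0101), Mobp at -0.51 ± 0.17 (0.0306) and Opalin at -0.49 ± 0.17 (0.0425). With KO Tau 712 or 713 left out in the same way, 0 members passed. The 2 KO Tau libraries that stay without 711 held 768 and 861 CPM of neocortical markers, while 711 held 258 and the WT Tau libraries 391 to 510 CPM. Their part in the lower values was not tested. Of the related genes 30 of 76 were above 0 with all 3 KO Tau libraries, 0 passed in edgeR, DESeq2 or limma voom, and 0 had an unadjusted p under 0.05 in edgeR.

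Tau in KO mice was read from male KO Tau against KO PBS. The members were spread around 0, with 3 of 9 above it and a median of -0.09, beside 50.2% of all genes and a median of 0.00. No member passed in edgeR (0% of all genes) or DESeq2 (0.311%), 0 had an unadjusted p under 0.05 in edgeR (7.95% of all genes), and none had KO Tau wholly below KO PBS (2.85% of all genes). Mbp was highest at 0.14 ± 0.37 (edgeR adjusted p = 0.942) and stood at -0.53 without KO Tau 711. The median was -0.27 without 711 and 0.14 without KO PBS 753. Mobp was lowest at -0.32 ± 0.34 (edgeR adjusted p = 0.817). Among the related genes, Tnr was lower by -0.65 ± 0.15 (edgeR adjusted p = 0.55), and DESeq2 called it with an adjusted p of 0.0425. Nfasc was at -0.33 ± 0.11, the lineage factor Zfp536 at -0.39 ± 0.16 and Susd5 of the precursor list at 0.47 ± 0.20, with adjusted p of 0.55, 0.584 and 0.594 in edgeR. Nfasc and Tnr are also made by neurons. In all, 4 of the 76 had an unadjusted p under 0.05 and 0 passed in edgeR.

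Whether the effect of Tau differed between genotypes was tested by the interaction term in males. It was below 0 for all 9 members, with a median of -0.63, while 50.2% of all genes were above 0 and their median was 0.00. Because the members varied together, these are not 9 separate observations. In edgeR 0 members passed (0% of all genes), as in DESeq2 (0% of all genes) and limma voom, and 1 member, Cldn11, had an unadjusted p under 0.05 where 4.18% of all genes did. Cldn11 was the lowest at -0.65 ± 0.29 (edgeR adjusted p = 0.996) and Mbp the highest at -0.26 ± 0.53 (adjusted p = 0.996). limma voom with quality weights gave all 9 an unadjusted p under 0.05 beside 13% of all genes, with a median of -0.83. The median of the members lay between -0.86, without WT PBS 792, and -0.42, without KO PBS 753. Of the related genes 12 of 76 were above 0, 5 had an unadjusted p under 0.05 in edgeR and 0 passed in edgeR or DESeq2. Tnr was at -0.65 ± 0.22, Nfasc at -0.39 ± 0.15 and S1pr5, the sphingosine phosphate receptor of mature oligodendrocytes, at -0.69 ± 0.27 (edgeR adjusted p = 0.996 for each). Myrf was at -0.67, and the precursor marker Pdgfra at 0.13.

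**Figure D3:**
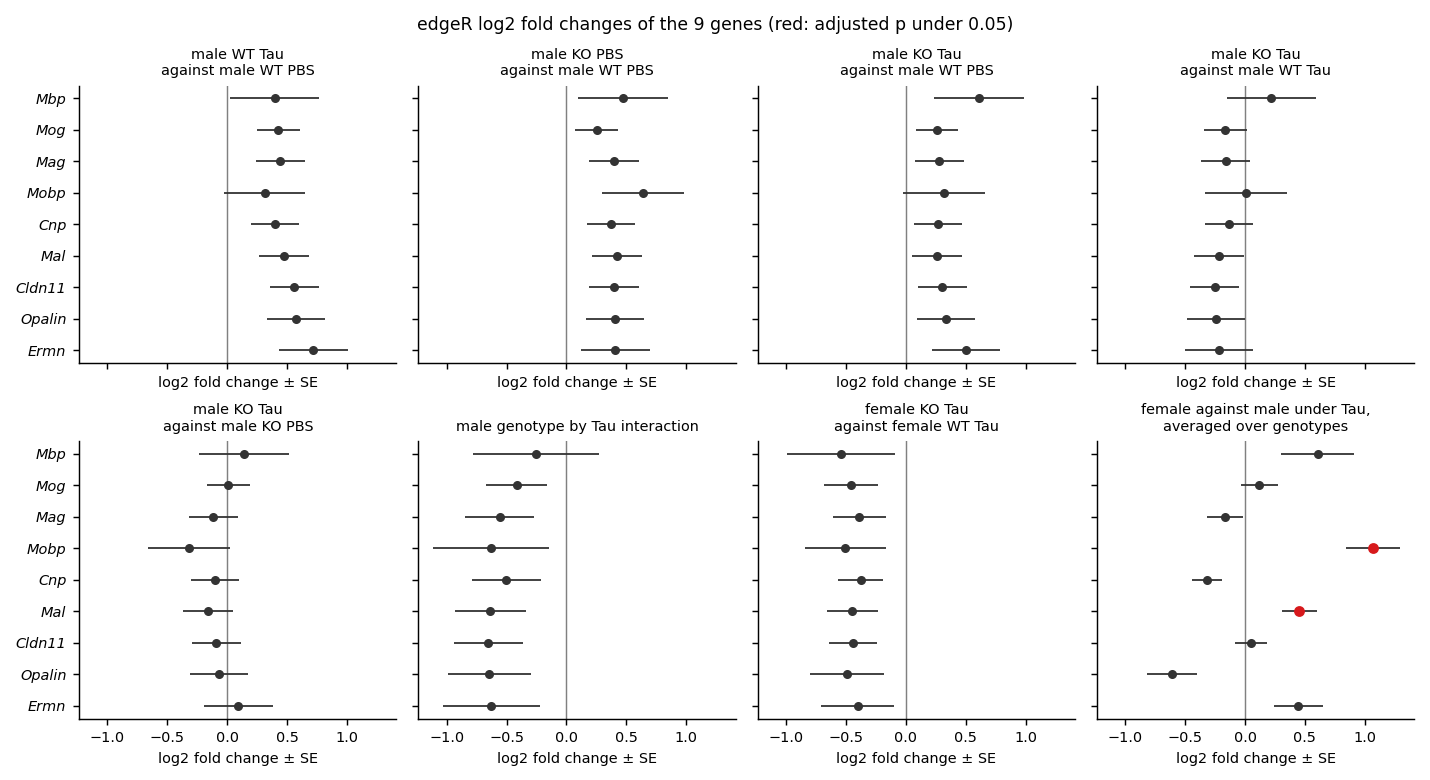
edgeR log2 fold changes with SE (x axis) of the 9 genes (y axis) in 8 comparisons, with adjusted p under 0.05 in red. All 9 lie on the same side of 0 in the male comparisons against WT PBS, in the interaction and in female KO Tau against WT Tau. They lie on both sides of 0 in male KO Tau against WT Tau and against KO PBS. Between female and male Tau libraries they spread from -0.61 (Opalin) to 1.07 (Mobp).

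In females, KO Tau could be set against WT Tau, with 3 and 2 libraries. All 9 members were below 0, with a median of -0.45, beside 48.0% of all genes above 0 and a median of -0.01. No member passed in edgeR (0.00649% of all genes called, Acss2) or in DESeq2 (0.00499%). Cldn11 alone had an unadjusted p under 0.05 in edgeR, as 2.89% of all genes did. Cldn11 was at 207 and 177 CPM in WT Tau and 122.9, 168.3 and 117 CPM in KO Tau, so that the libraries did not overlap. That difference was -0.44 ± 0.20 (edgeR adjusted p = 0.997). Mobp and Cnp also had KO Tau wholly below WT Tau, which makes 3 of 9 members beside 10.3% of all genes. Mbp was lowest at -0.54 ± 0.45 (edgeR adjusted p = 0.997) and Cnp highest at -0.38 ± 0.19 (adjusted p = 0.997). Female WT Tau 331 decides the size: without it the median was -0.17 and Mbp was at 0.20, and without 341 the median was -0.71. That library also had the highest summed astrocyte markers of all, at 10062 CPM. Choroid plexus markers lay apart, at 91.2 to 401 CPM in KO Tau and 34.4 to 84.8 CPM in WT Tau, as did those of inhibitory neurons, at 497 to 674 and 678 to 701 CPM, and their part was not tested. Of the related genes, 8 of 76 were above 0, 10 had an unadjusted p under 0.05 and 0 passed in edgeR, DESeq2 or limma voom. The mature lists and the lineage transcription factors had medians from -0.46 to -0.24. Newly formed oligodendrocytes, at -0.24, lay with them here, unlike in the males, and precursors were at -0.08. Gpr17, a receptor of cells on the way from precursor to oligodendrocyte, was at -0.70 ± 0.17, Klk6 at -1.30 ± 0.43 and Gltp, a glycolipid transfer protein, at -0.49 ± 0.17, each with an adjusted p of 0.997 in edgeR. Aspa was at -0.45, Enpp6 at -0.45, Olig2 at -0.37, Sox10 at -0.27, Olig1 at -0.24, Myrf at -0.12, Sox8 at -0.11 and Pdgfra at -0.06.

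Of the 8 comparisons in edgeR with all libraries, female against male under Tau, averaged over genotypes, was the one with calls among the members. Mobp was higher in females by 1.07 ± 0.23 on the log2 scale, with means of 478 and 222 CPM (edgeR adjusted p = 0.0116), and Mal was higher by 0.45 ± 0.14, with means of 364 and 260 CPM (edgeR adjusted p = 0.0429). Those 2 of 9 members stand beside 23.8% of all genes called by edgeR, so the share of members is near that of all genes. DESeq2 called 3 members, Mobp, Mal and, lower in females, Opalin, beside 26.4% of its genes, and limma voom called 5 beside 40.1%. At an unadjusted p under 0.05, edgeR had 4 members, with Cnp and Opalin on the lower side, beside 39.8% of all genes. Opalin was at -0.61 ± 0.21 (edgeR adjusted p = 0.0559) and Cnp at -0.32 ± 0.13 (adjusted p = 0.0869). Mbp, with means of 3356 and 2143 CPM, was at 0.61 ± 0.30 (edgeR adjusted p = 0.16). Over all 9 the median was 0.12, with 6 above 0, while the median of all genes was -0.01 and 48.5% were above 0. No member had all female above all male Tau libraries, as 6.76% of all genes did, since male KO Tau 711 lay among the female values of Mobp. Without 711, edgeR called 4 members (Mbp, Mobp, Mal and Ermn, all higher) and 6290 genes in all (40.7%). Without female WT Tau 331 it called 0 members and 628 genes in all (3.99%), with Mobp at 0.95. The median of the members was 0.01 without 331 and 0.27 without female WT Tau 341.

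The difference between Mobp and its neighbours shows within single libraries, where it does not depend on the total. The ratio of Mobp to Cnp CPM was 1.34 and 1.57 in female WT Tau, ran from 1.22 to 1.52 in female KO Tau and from 0.389 to 0.747 in the 12 male libraries. Mobp to Opalin ran from 22.7 to 34.5 in females and 6.93 to 12.5 in males. The ratio of Mbp to Mog was 36.6 to 52.2 in females and 24.3 to 35.7 in 11 males, with male KO Tau 711 at 55.6. By contrast, Cnp to Opalin overlapped between the sexes, at 14.5 to 23.8 and 14.1 to 18.1. Among male groups, Mobp to Cnp was 0.477 to 0.616 in WT PBS, 0.605 to 0.735 in KO PBS and 0.490 to 0.535 in WT Tau. WT PBS overlapped KO PBS and WT Tau, and the male KO Tau libraries spanned all of these. These ratios were chosen after the values were seen and carry no test. Astrocyte markers summed to 8887 to 10062 CPM in females and 4508 to 5344 CPM in males other than 711. Microglial markers were at 630 to 784 and 404 to 586 CPM, inhibitory neuron markers at 497 to 701 and 862 to 1232 CPM, in the same libraries. Male KO Tau 711 held 8354, 660 and 629 CPM of these lists in turn. Its ratios were 0.747 for Mobp to Cnp, 10.65 for Mobp to Opalin and 55.6 for Mbp to Mog. Sex and number series cannot be told apart here, and the part of these marker levels in the ratios was not tested.

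**Figure D4:**
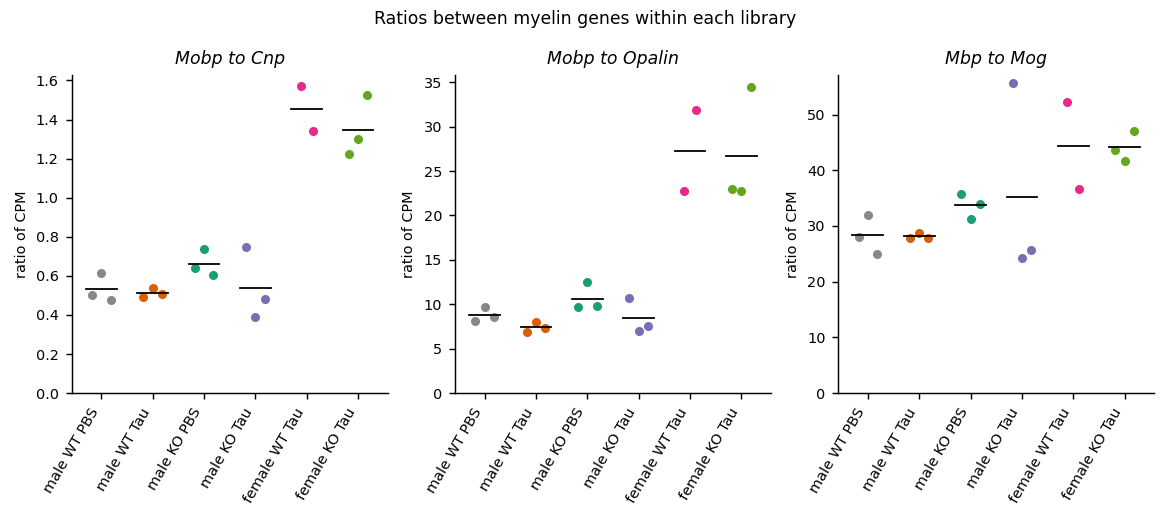
Ratios of CPM within each library (y axes, from 0) for Mobp to Cnp, Mobp to Opalin and Mbp to Mog in 6 groups (x axis), with libraries as points and group means as lines. The female ratios of Mobp to Cnp lie at 1.22 to 1.57 and the male at 0.389 to 0.747, and male KO Tau 711 has the highest Mbp to Mog ratio, 55.6.

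The related genes were also divided between female and male Tau libraries. edgeR called 17 of 76, 10 higher and 7 lower, beside 23.8% of all genes, and DESeq2 called 19 of 76 beside 26.4%, so in both the share is near that of all genes. The higher side held Hapln2, a link protein of the node of Ranvier (0.90 ± 0.19, edgeR adjusted p = 0.0105), Apod (0.72 ± 0.15, adjusted p = 0.0101), the potassium channel Kcnj10 (0.86 ± 0.18, adjusted p = 0.0109), which astrocytes also express, and Bcas1 of newly formed oligodendrocytes (0.99 ± 0.32, adjusted p = 0.0458). Tcf7l2 was higher by 1.72 ± 0.51 (edgeR adjusted p = 0.0341). It is also a gene of thalamic neurons, whose 10 markers summed to 263 to 768 CPM in females and 233 to 463 CPM in males. On the lower side were Sox10 (-0.58 ± 0.12, edgeR adjusted p = 0.00961), Gpr17 (-0.56 ± 0.11, adjusted p = 0.0103) and Gal3st1, which makes sulfatide (-0.48 ± 0.12, adjusted p = 0.0166). Sox10 ran from 30.8 to 45.1 CPM in females, every library below the male Tau libraries at 47.4 to 68.5 CPM. Pdgfra was higher by 0.25 ± 0.07 (edgeR adjusted p = 0.0278), with all female libraries above all male Tau libraries. Of the 76, 5 lay wholly above and 1 wholly below, beside 6.76% and 3.77% of all genes. Such separation was thus no more common among them than over all genes. Olig1 (0.18), Aspa (0.14), Myrf (-0.10), Sox8 (-0.10), Olig2 (-0.17) and Enpp6 (-0.36) did not pass. The count of related genes called ranged from 6, without female WT Tau 331, to 28, without male KO Tau 711, with 3.99% and 40.7% of all genes called.

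Among the 10 genes most like the members over the 17 libraries, by Pearson r of the deviations of log2 CPM from group means with the mean of the members, were Slc44a1 (0.97), Tmem88b (0.97), Tspan2 (0.96), Prr5l (0.95), Pllp (0.95), Gatm (0.95), Tnfaip6 (0.95), Carhsp1 (0.94) and Prr18 (0.94). Of the 100 genes highest in r among 15585 compared, 23 were in the related lists, which hold 76 genes. The opposite end held Mrps2 (-0.93), Klhl42 (-0.90), Ackr1 (-0.90), Zfp422 (-0.89) and Dbr1 (-0.88).

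Scores of the mature lists followed the members closely in the same way, with r between 0.96 and 0.98 for the first 4 lists, 0.86 for the transcription factors and 0.87 for newly formed oligodendrocytes. For precursors r was 0.50, and 0.19 without the 2 libraries farthest from the median of the precursor score. Of other cells, microglia (0.79) and astrocytes (0.72) had the highest values and striatum (-0.56), inhibitory neurons (-0.54) and neocortex (-0.46) the lowest. Without the 2 libraries farthest in the score of each list these were 0.65, 0.66, -0.90, -0.18 and -0.01. Those libraries were picked list by list, so the values need not rest on the same libraries. Dentate granule cells (0.21), CA1 (0.25), CA2 and CA3 (0.38), thalamus (0.42), endothelium (0.54), choroid plexus (0.12) and ependyma (0.05) lay between. These are descriptions over libraries that share tissue block and preparation, and how far slice content moves the members was not tested.

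**Figure D5:**
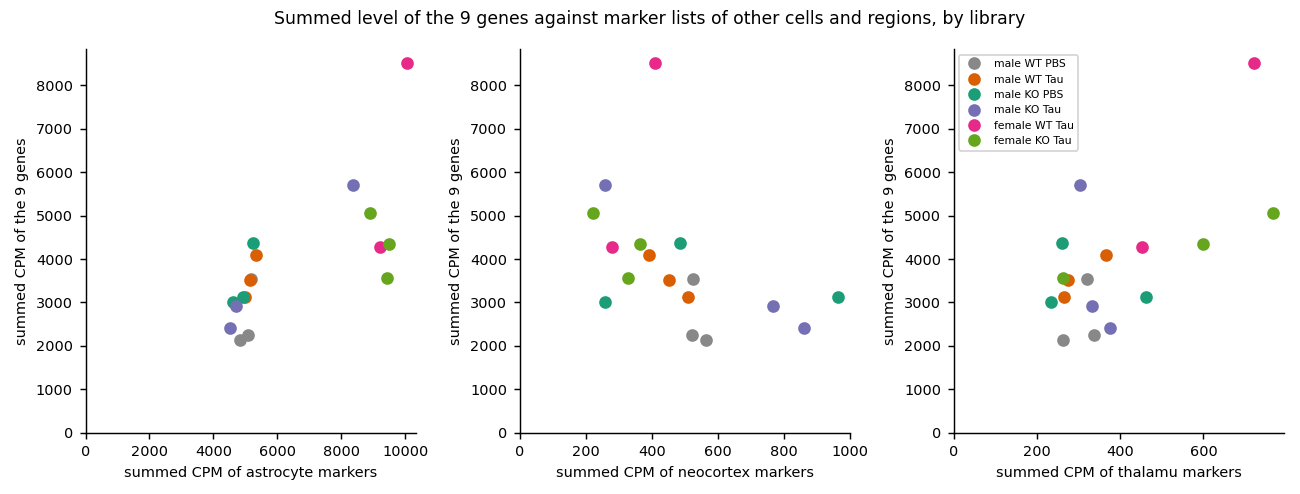
Summed CPM of the 9 genes (y axis) against summed CPM of astrocyte, neocortex and thalamus markers (x axes) in 17 libraries, coloured by group. The female libraries and male KO Tau 711 lie at 8354 to 10062 CPM of astrocyte markers and the other male libraries at 4508 to 5344 CPM.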

How the data were processed

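The authors deposited raw counts per gene symbol for 17 libraries. Per the methods and the processing notes of the submitters, reads were aligned to mm10 with STAR 2.5.2, handled with SAMtools 1.1 and counted over exons with HTSeq 0.9.1 in reverse-stranded mode. The annotation release is not given in the sources used here. Totals of 14183131 to 22463635 counts set the precision, and intervals or floors would cover counting error only.

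The members and gene lists were chosen with earlier results of these data known. CPM used the total of each library. Tests used edgeR 4.0.16 (quasi-likelihood F test, TMM factors, filterByExpr with a minimum count of 10 and a total of 15, R 4.3.3) on the 12 male libraries together and on the 11 Tau libraries together, with no covariate, and Benjamini-Hochberg adjustment over all genes tested at 0.05. DESeq2 1.42.0, limma 3.58.1 voom with quality weights, other size factors, a filter of 1 count, all 17 libraries, the groups compared alone and each library left out were alternatives. No 2 libraries of the 136 pairs held identical counts. Scripts were tested on simulated data. Named were all 9 members by level, in each comparison the members with the highest and lowest fold change and any that passed, a fixed set of related genes always, and up to 3 related genes higher and 3 lower with the smallest p under 0.05. Some genes that this rule names are not reported here. Likeness used log2 CPM with a prior count of 2. Lengths are exon unions of the GRCm38 annotation.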

Additional observations from a re-analysis of the deposited data

How the results depend on the processing

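Over the 8 comparisons, 155 alternatives were run. In all of them the median log2 difference of the members moved by less than the pooled within-group SD of their mean (0.33). That SD is larger than the median itself in several comparisons, such as 0.31 for male KO Tau against WT PBS, so it is a wide limit. Some alternatives left out a library of a group not compared, where the median could hardly move. For male KO Tau against KO PBS the median was -0.09 with all libraries. It reached 0.14 without male KO PBS 753 and 0.02 in DESeq2 on the groups compared without male KO Tau 712. In 7 of the 8 comparisons edgeR called 0 members, so a count of 0 under an alternative says little of stability. DESeq2 on only the groups compared, without male KO Tau 711, called 4 members and 15 related genes in male KO Tau against WT Tau, beside 1377 genes (9.25%), and 6 related genes against WT PBS, beside 1032 (7.3%). DESeq2 on only the groups compared called 6 related genes in male WT Tau against WT PBS, beside 11 genes (0.101%), and DESeq2 on all male libraries 1 in male KO Tau against KO PBS, beside 36 (0.311%). Between female and male Tau libraries limma voom called 5 members beside 40.1% of all genes, and leaving out a library gave 0 to 4 members and 6 to 28 related genes. Over all genes with every library, edgeR called 1 and DESeq2 15 in male KO Tau against WT PBS, 1 and 4 against WT Tau and 0 and 36 against KO PBS.

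Mbp changed sign with single libraries. Leaving out a library moved it from -0.057 (male KO Tau 711) to 0.93 in male KO Tau against WT PBS, from -0.45 (711) to 0.50 against WT Tau and from -0.53 (711) to 0.42 against KO PBS. The interaction ran from -0.93 to 0.021 (712) and female KO Tau against WT Tau from -1.03 to 0.20 (331). Without 711, DESeq2 on the groups compared gave -0.054, -0.45 and -0.53. With all male libraries, limma voom gave -0.32 and -0.46 against WT Tau and KO PBS. The cause was not tested. Of 326 values for named members, 10 changed sign, 15 crossed the threshold and 301 did neither. Some of these fits left out a library of a group not compared, which could hardly move the value. A group left with 1 library was assumed to vary like the others. No paired analysis was possible because the groups share no replicate numbers. With 2 or 3 libraries a group, differences of the size seen here were mostly within the spread between libraries.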
